A study of Homo sapiens with 6 samples.

Results

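The BCL2 family sets the threshold for the mitochondrial pathway of apoptosis. Its transcripts were compared between ovarian cancer cells with intact and with reduced COX-1 expression. The 10 members were chosen by gene symbol: the anti-apoptotic genes BCL2, BCL2L1 (BCL-XL), BCL2L2 (BCL-W) and MCL1, the effector BAK1 (BAK), and the BH3-only genes BID, BIK, BMF, BCL2L11 (BIM) and PMAIP1 (NOXA). They are 10 of the 34811 genes in the deposited count table, and all 10 passed the filter on low counts that left 17309 genes for testing. OVCAR-3 is an established human cell line derived from ovarian carcinoma. OV3/SCR cells carry a scrambled shRNA in the pRS HuSH-29 plasmid and OV3/COX1KD cells an shRNA against COX-1 in the same plasmid, and both were selected as stable clones in puromycin. RNA-seq was performed on 3 libraries per condition, from separately harvested populations of 1 clone each (OV3/SCR clone #1 and OV3/COX1KD clone #2), so effects of knockdown and of clone cannot be told apart.

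Anti-apoptotic members hold BAX and BAK1 in check on the outer mitochondrial membrane by binding them and the BH3-only proteins in a surface groove. BH3-only proteins are sensors of stress. They occupy this groove or activate BAX and BAK1 directly, after which the membrane is permeabilised, cytochrome c is released and caspases are activated. Serous ovarian cancers are known to depend often on BCL-XL and MCL1 protein for survival. The counts measure transcripts only, while MCL1, NOXA, BIM and BID proteins are also controlled by turnover, phosphorylation or cleavage.

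In OV3/COX1KD cells 5 of the 10 members were lower (MCL1, BID, BIK, BMF and PMAIP1), 1 was higher (BCL2L11), and 4 did not pass the test (BCL2, BCL2L1, BCL2L2 and BAK1). Genes were tested with the quasi-likelihood method of edgeR, p-values were adjusted over all 17309 genes (Benjamini-Hochberg FDR), and a gene was called when its FDR was under 0.01. All 5 BH3-only members were called, against 1 of the 4 anti-apoptotic members, a difference that was not tested. BCL2 and BCL2L1 lay just outside the threshold (FDR = 0.0113 and 0.0137 by edgeR), and BIK lost its call under some other settings. Among BH3-only genes outside the members, BAD was not called (FDR = 0.341 by edgeR). BBC3 was called higher (FDR = 4.89e-05 by edgeR) and HRK lower (FDR = 1.77e-04 by edgeR). Across all genes tested 47.9% were called, 25.8% higher and 22.1% lower, so the count of 6 called among 10 is near the background. The median log2 fold change was -0.139 over the members and -0.009 over all genes tested, and the median size of the change, regardless of sign, was 0.286 and 0.277. A change beyond 0.5 on the log2 scale at the same FDR was found for 2 members, PMAIP1 and BIK, against 19.9% of all genes (9.87% above and 10.0% below), and no member passed the fold change of 2.5 that 3.92% of genes passed. The range of the 3 libraries did not overlap between conditions for 8 members, in CPM (counts scaled to library size in the usual CPM unit, with library sizes corrected by the TMM factors of edgeR), against 63.2% of all genes.

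**Figure D1:**
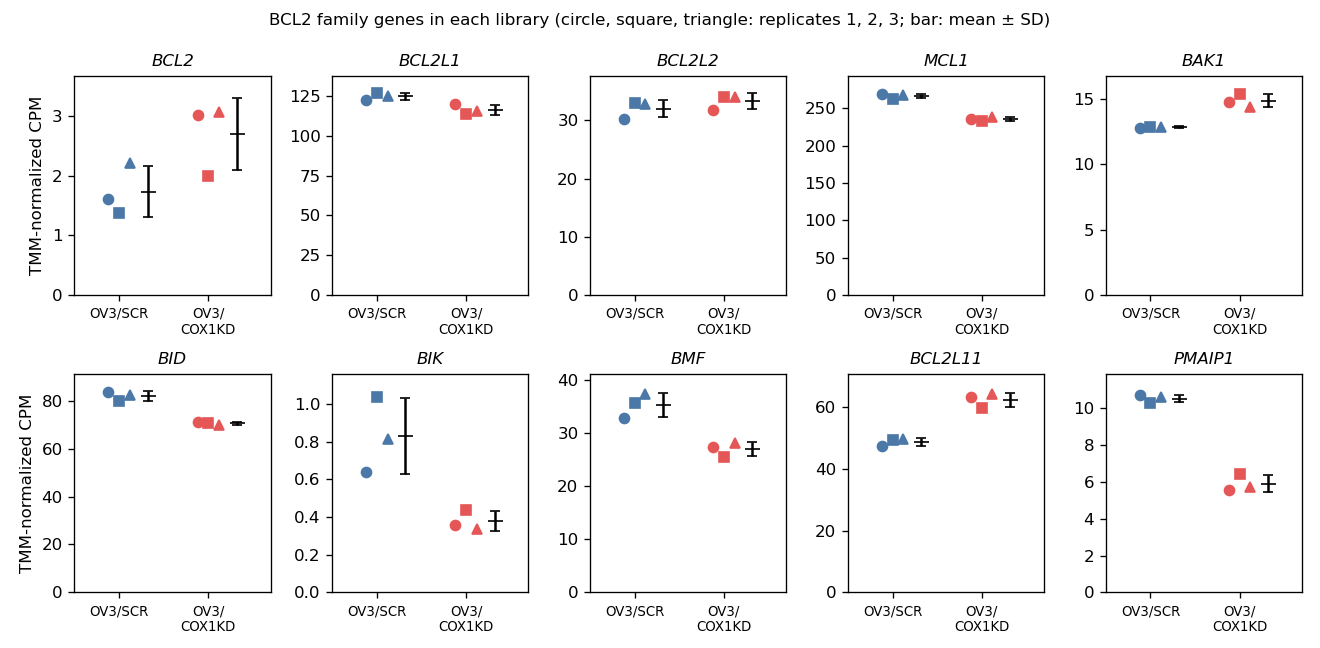
TMM-normalized CPM of each BCL2 family gene (vertical axes, each starting at 0) in the 3 OV3/SCR libraries (blue) and the 3 OV3/COX1KD libraries (red), with the mean and SD of each condition as a bar. The conditions are apart for every gene except BCL2 and BCL2L2, and PMAIP1 falls from a mean of 10.5 to 5.91 CPM.

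The libraries held between 25291505 and 27391538 counts, so that 3 counts, the smallest level taken as detectable, corresponded to 0.113 to 0.120 CPM (counting error only, since PCR copies are not independent molecules). The gene for COX-1, PTGS1, had 641 to 713 counts in OV3/SCR and 456 to 501 in OV3/COX1KD libraries, a remaining level of 73.3%. All 8 markers of ovarian epithelial carcinoma (PAX8, WT1, MUC16, EPCAM and keratins) were expressed, with a summed level of 5420 to 5490 CPM in OV3/SCR and 6870 to 7060 CPM in OV3/COX1KD. These markers moved both ways, with PAX8 at 59.0% and KRT7 at 90.6% of the OV3/SCR level and the other 6 higher, from KRT19 at 125% to MUC16 at 256%. The 9 leukocyte, endothelial and stromal markers in the table summed to 13 to 13.7 and 8.93 to 10.0 CPM, and none of them was at or under 3 counts in all 6 libraries. COL1A1 made up most of this sum, with 258 to 270 counts in OV3/SCR and 143 to 160 in OV3/COX1KD libraries, while COL3A1 had 0 counts in 5 libraries and 4 in OV3/COX1KD replicate 3. The part of these markers in the results was not tested. OV3/COX1KD replicate 2 stood apart from the other OV3/COX1KD libraries, with chi-square values of 4.44 and 5.74 per degree of freedom in comparisons of its counts with theirs, while these compared with each other at 1.81. In that library the genes with a longest transcript of 10000 bases or more deviated from the condition mean by a median of -0.078 on the log2 scale, against 0.032 and 0.044 in replicates 1 and 3. The p-values measure the spread between passages of 1 clone.

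Promoter sequences are shown for the 3 members with the lowest FDR among the BH3-only genes, PMAIP1, BCL2L11 and BMF, which moved in both directions. Each is the 250 bases before a transcription start annotated by RefSeq on GRCh38.p14, which is not the build of the count table, and windows were found for 7 of the 10 members (BCL2L2, MCL1 and BIK had none). Capitals mark a half-site of the cAMP response element (TGACG, or CGTCA on the other strand) or a FOXO site (TGTTTAC, or GTAAACA on the other strand). PMAIP1 lies at chr18:59899746-59899995 on the plus strand, BCL2L11 at chr2:111120664-111120913 on the plus strand, and the upstream of the 2 windows of BMF at chr15:40108880-40109129 on the minus strand.
PMAIP1: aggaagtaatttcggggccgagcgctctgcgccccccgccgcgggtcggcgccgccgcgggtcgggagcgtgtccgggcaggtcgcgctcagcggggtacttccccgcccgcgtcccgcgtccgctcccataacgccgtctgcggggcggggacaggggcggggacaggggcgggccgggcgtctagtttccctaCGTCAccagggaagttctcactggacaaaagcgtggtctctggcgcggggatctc
BCL2L11: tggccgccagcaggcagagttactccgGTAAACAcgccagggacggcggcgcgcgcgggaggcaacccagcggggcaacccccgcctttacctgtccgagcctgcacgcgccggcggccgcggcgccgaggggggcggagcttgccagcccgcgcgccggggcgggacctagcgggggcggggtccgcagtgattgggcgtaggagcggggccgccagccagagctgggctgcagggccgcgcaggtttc
BMF: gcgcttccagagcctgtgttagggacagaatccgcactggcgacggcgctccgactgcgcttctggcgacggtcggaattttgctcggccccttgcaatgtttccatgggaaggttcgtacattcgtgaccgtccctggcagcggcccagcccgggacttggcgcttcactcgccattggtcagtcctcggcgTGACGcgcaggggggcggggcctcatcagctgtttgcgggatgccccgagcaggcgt
The half-site began 55 bases before the start in PMAIP1 and 57 bases before it in BMF, and the FOXO site began 223 bases before the start in BCL2L11. Windows of BCL2 and BCL2L1 also held a half-site, 225 and 201 bases before the start, so that 4 of the 13 windows of the 7 members held one, and 1 held the FOXO site. Of 35116 promoter windows of this length, 21.2% held the half-site and 2.98% the FOXO site. These matches are letters in a window and do not show that a factor was bound.

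PMAIP1 (ENSG00000141682, chromosome 18 of GRCh37 from 57567228 to 57571537) encodes NOXA, a BH3-only protein that binds MCL1. It had 286, 268 and 273 counts in OV3/SCR replicates 1, 2 and 3 and 140, 161 and 153 in OV3/COX1KD. Every OV3/COX1KD library was below every OV3/SCR library. The level was 10.5 ± 0.224 CPM (SD, n = 3) in OV3/SCR and 5.91 ± 0.455 CPM (SD, n = 3) in OV3/COX1KD cells, giving a log2 fold change of -0.83 (standard error, SE, of 0.089, FDR = 1.25e-07 by edgeR) that left 56.2% of the control level.

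BCL2L11 (ENSG00000153094, chromosome 2 from 111876955 to 111926021) encodes BIM, which binds all anti-apoptotic family proteins and can activate BAX and BAK1. It was the only member called higher, with counts of 1261, 1290 and 1281 in OV3/SCR and of 1596, 1502 and 1710 in OV3/COX1KD libraries. The groups did not overlap. The level rose from 48.8 ± 1.28 CPM (SD, n = 3) to 62.5 ± 2.26 CPM (SD, n = 3), giving a log2 fold change of 0.36 (SE 0.042, FDR = 4.0e-07 by edgeR). Exons of the antisense gene MIR4435-2HG cover 10.8% of the exon length of BCL2L11, and whether the counting used strand is not stated. MIR4435-2HG (ENSG00000172965, AC068491.1 in the table) was itself lower, with 328 to 349 counts in OV3/SCR and 230 to 282 in OV3/COX1KD libraries and a log2 fold change of -0.38 (SE 0.077, FDR = 2.61e-04 by edgeR).

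BMF (ENSG00000104081, chromosome 15 from 40380091 to 40401093), a BH3-only gene whose protein is held on the cytoskeleton until released, was counted 873, 925 and 963 times in OV3/SCR and 686, 636 and 746 times in OV3/COX1KD libraries. All OV3/COX1KD libraries were lower than all OV3/SCR libraries. Its level fell from 35.2 ± 2.27 to 26.9 ± 1.35 CPM (SD, n = 3 each), giving a log2 fold change of -0.39 (SE 0.057, FDR = 7.81e-06 by edgeR). Exons of the antisense gene BMF-AS1, not analysed here, cover 8.46% of the exon length of BMF. BMF and BCL2L11, whose proteins both bind dynein light chains, moved in opposite directions.

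BID (ENSG00000015475, chromosome 22 from 18216904 to 18257536), which links death receptors and caspase-8 to the mitochondrion, was the most abundant BH3-only transcript. It had 2228, 2077 and 2126 counts in OV3/SCR and 1793, 1768 and 1864 in OV3/COX1KD libraries, without overlap. The level was 81.8 ± 1.97 CPM (SD, n = 3) in OV3/SCR and 70.6 ± 0.640 CPM (SD, n = 3) in OV3/COX1KD, giving a log2 fold change of -0.21 (SE 0.036, FDR = 3.91e-05 by edgeR).

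BIK (ENSG00000100290, chromosome 22 from 43506756 to 43525718), whose BH3-only protein resides mostly at the endoplasmic reticulum, was scarce, with 17, 27 and 21 counts in OV3/SCR and 9, 11 and 9 in OV3/COX1KD libraries. The highest OV3/COX1KD library was below the lowest OV3/SCR library. The level was 0.829 ± 0.200 CPM (SD, n = 3) and 0.378 ± 0.0536 CPM (SD, n = 3), giving a log2 fold change of -1.12 (SE 0.32, FDR = 0.00509 by edgeR). The call was lost without OV3/SCR replicate 2 (FDR = 0.0353) or 3 (FDR = 0.0153), without OV3/COX1KD replicate 1 (FDR = 0.0198) or 3 (FDR = 0.0241), and in DESeq2 (FDR = 0.0262), all given without a change of direction.

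**Figure D2:**
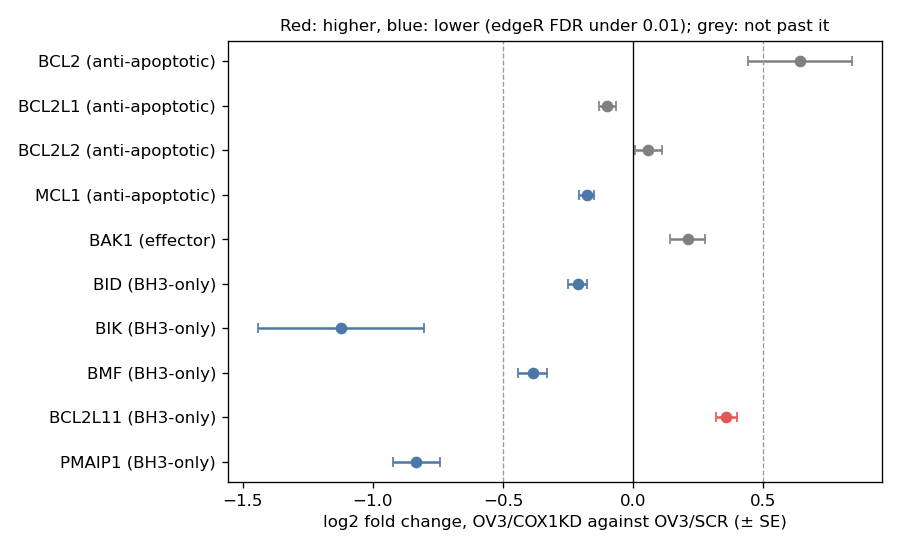
Log2 fold change of each member (horizontal axis, OV3/COX1KD against OV3/SCR) with its standard error, with dashed lines at 0.5 to either side of 0. BCL2L11 is the only red point, MCL1 and 4 BH3-only genes are blue, and BIK has the widest error of the called genes, 0.32.

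Among the anti-apoptotic members, MCL1 (ENSG00000143384, chromosome 1 from 150533371 to 150552214), a short-lived protein required by many tumour cells, was the only one called. It had 7170, 6842 and 6920 counts in OV3/SCR and 5930, 5833 and 6340 in OV3/COX1KD libraries, and the groups did not overlap. The level was 266 ± 3.39 CPM (SD, n = 3) and 235 ± 2.60 CPM (SD, n = 3), giving a log2 fold change of -0.18 (SE 0.029, FDR = 2.33e-05 by edgeR). This fall to 88.4% of the control was larger than the spread between replicates and smaller than the change of 65.4% of all genes tested.

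BCL2L1 (ENSG00000171552, chromosome 20 from 30252255 to 30311792), the gene of BCL-XL, had 3276, 3299 and 3227 counts in OV3/SCR and 3009, 2846 and 3092 in OV3/COX1KD libraries. In CPM all OV3/COX1KD libraries were below all OV3/SCR libraries, but the log2 fold change of -0.10 (SE 0.033, FDR = 0.0137 by edgeR) did not pass. With scaling to total counts it was -0.18 (FDR = 7.74e-05). It did not pass without the filter on low counts (FDR = 0.123) or in DESeq2 (FDR = 0.0363). Leaving out each library in turn gave an FDR of 0.0153 to 0.064. Exons of the antisense gene ABALON, not analysed here, cover 41.3% of the exon length of BCL2L1.

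BCL2L2 (ENSG00000129473, chromosome 14 from 23767999 to 23780960), the gene of BCL-W, had 807, 857 and 848 counts in OV3/SCR and 799, 852 and 909 in OV3/COX1KD libraries, which overlapped. Its log2 fold change was 0.058 (SE 0.051, FDR = 0.346 by edgeR), and its sign turned with scaling to total counts, to -0.0196. The readthrough gene BCL2L2-PABPN1 shares 16.8% of the exon length of BCL2L2 and had 5 to 14 counts per library. Reads in the shared exons cannot be assigned to one of these genes.

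BCL2 (ENSG00000171791, chromosome 18 from 60790579 to 60987361), the founding member of the family, was the scarcest of the chosen anti-apoptotic members. It had 43, 36 and 57 counts in OV3/SCR and 76, 50 and 82 in OV3/COX1KD libraries. The OV3/COX1KD replicate 2 value lay within the range of OV3/SCR. The level was 1.73 ± 0.425 CPM (SD, n = 3) and 2.70 ± 0.609 CPM (SD, n = 3), giving a log2 fold change of 0.64 (SE 0.20, FDR = 0.0113 by edgeR). It passed the threshold without OV3/COX1KD replicate 2 (log2 fold change 0.82, FDR = 1.09e-04), without OV3/SCR replicate 3 (0.85, FDR = 0.00496), and without the filter on low counts (0.66, FDR = 8.77e-04). It did not pass without OV3/SCR replicate 1 (FDR = 0.0443) or 2 (FDR = 0.0724), without OV3/COX1KD replicate 1 (FDR = 0.0485) or 3 (FDR = 0.0613), or in DESeq2 (FDR = 0.0239). The longest BCL2 transcript has 7461 bases, and with offsets for length and GC content per library the log2 fold change was 0.64 (FDR = 0.00613).

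BAK1 (ENSG00000030110, chromosome 6 from 33540324 to 33548070), the effector that forms pores in the outer mitochondrial membrane, had 342, 335 and 333 counts in OV3/SCR and 372, 386 and 384 in OV3/COX1KD libraries. The groups did not overlap. The level was 12.9 ± 0.0259 CPM (SD, n = 3) and 14.9 ± 0.501 CPM (SD, n = 3). The log2 fold change of 0.21 (SE 0.066, FDR = 0.0109 by edgeR) stood just outside the threshold, passing it without the filter on low counts (0.23, FDR = 0.00978). It did not pass with total count scaling (0.13, FDR = 0.102) or in DESeq2 (FDR = 0.0588). Leaving out each library in turn gave an FDR of 0.0129 to 0.0302.

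To set members side by side, CPM was divided by the length of all exons of a gene (RPKM, the CPM per kilobase of exon). In OV3/SCR cells MCL1 was highest (42.8 ± 0.545 RPKM, SD, n = 3), followed by BCL2L1 (29.7 ± 0.442), BID (18.5 ± 0.445), BCL2L11 (7.24 ± 0.190), BCL2L2 (6.61 ± 0.307), BMF (6.46 ± 0.417), BAK1 (5.81 ± 0.0117), PMAIP1 (4.81 ± 0.103), BIK (0.871 ± 0.210) and BCL2 (0.137 ± 0.0337). The order in OV3/COX1KD was the same except that BAK1 (6.72 ± 0.226 RPKM) stood above BMF (4.93 ± 0.248 RPKM). In OV3/SCR the libraries of BCL2L2 and BMF overlapped, in OV3/COX1KD those of BCL2L2 and BAK1, and all other neighbours in the order were apart. The summed level of the 4 anti-apoptotic genes was 79.3 ± 0.413 RPKM (SD, n = 3) in OV3/SCR and 72.7 ± 0.877 RPKM (SD, n = 3) in OV3/COX1KD cells, and that of the 5 BH3-only genes 37.9 ± 0.514 and 33.3 ± 0.316 RPKM. Both sums were lower in every OV3/COX1KD library than in every OV3/SCR library.

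MCL1 made up 54.0 ± 0.780% (SD, n = 3) of the summed anti-apoptotic level in OV3/SCR and 52.1 ± 0.270% in OV3/COX1KD, BCL2L1 made up 37.5 ± 0.495% and 38.2 ± 0.674%, BCL2L2 8.33 ± 0.353% and 9.47 ± 0.442%, and BCL2 0.173 ± 0.0417% and 0.294 ± 0.0633%. MCL1 and BCL2L1 together held most of this class in both conditions. Among the 5 BH3-only members the share of BCL2L11 was 19.1 ± 0.391% in OV3/SCR and 27.9 ± 0.750% in OV3/COX1KD. That of PMAIP1 was 12.7 ± 0.327% and 8.13 ± 0.704%. BID kept the highest share, 48.9 ± 1.35% and 48.0 ± 0.627%. The shares of BMF were 17.0 ± 0.902% and 14.8 ± 0.612%, and those of BIK 2.30 ± 0.556% and 1.20 ± 0.182%. BAD, BBC3 and HRK are also BH3-only genes, but lay outside the chosen members and these sums. Their mean levels were 10.9, 2.01 and 0.61 RPKM in OV3/SCR and 11.5, 2.93 and 0.353 RPKM in OV3/COX1KD. The sums and shares therefore depend on which genes were chosen. These shares are descriptions, and no test was made of them.

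**Figure D3:**
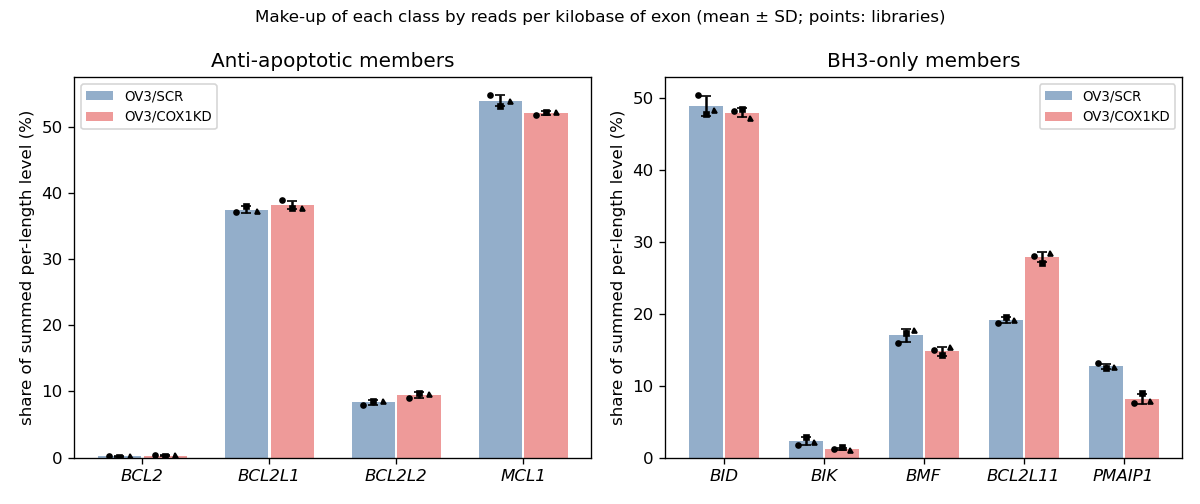
Share of each member in the summed per-length level of its class (vertical axes, percent), for the anti-apoptotic members (left) and the BH3-only members (right), as mean and SD of 3 libraries with the libraries as points. The bars of BCL2L11 (19.1% and 27.9%) and PMAIP1 (12.7% and 8.13%) differ most between OV3/SCR and OV3/COX1KD.

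Ratios within a library do not depend on scaling. The ratio of BCL2L11 to PMAIP1 per exon length was 1.43, 1.56 and 1.52 in OV3/SCR replicates 1, 2 and 3 and 3.70, 3.02 and 3.62 in OV3/COX1KD. The ratio of BCL2L11 to MCL1 was 0.162, 0.174 and 0.171 in OV3/SCR and 0.248, 0.238 and 0.249 in OV3/COX1KD. That of PMAIP1 to MCL1 was 0.114, 0.111 and 0.112 in OV3/SCR and 0.0672, 0.0786 and 0.0687 in OV3/COX1KD. In all 3 ratios the conditions did not overlap, with the 2 BH3-only genes moving to opposite sides relative to MCL1. The other ratios computed, BMF to BCL2L11 and BID, BCL2L1 and BCL2 to MCL1, did not overlap either. Taken singly, 63.2% of all genes tested did not overlap, so this lack of overlap does not set the 3 ratios apart.

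The rest of the family and the steps downstream were read from 5 further lists. Of 14 other BCL2-like genes 11 were tested, 5 were higher and 2 lower. BBC3 (PUMA), a BH3-only gene, rose by 0.54 on the log2 scale (SE 0.093, FDR = 4.89e-05 by edgeR), from 176, 177 and 151 counts to 220, 241 and 257. HRK (Harakiri), also BH3-only, had a log2 fold change of -0.79 (SE 0.15, FDR = 1.77e-04 by edgeR), with 129, 98 and 102 counts in OV3/SCR and 52, 70 and 64 in OV3/COX1KD libraries. The mitophagy receptor genes BNIP3L (log2 fold change 0.42) and BCL2L13 (0.37) rose and BNIP3 (-0.34) fell, while the effector genes BOK (0.33) and BAX (0.16) rose. The call of BAX was lost under 10 of 15 alternatives. Among them were total count scaling (log2 fold change 0.0827), RLE scaling (FDR = 0.0125) and DESeq2 (FDR = 0.0489). Others were at least 10 counts in every library (FDR = 0.0183) and the replicate block (FDR = 0.012). The call was also lost without OV3/SCR replicate 1, 2 or 3 (FDR = 0.0273, 0.0180 and 0.0369) and without OV3/COX1KD replicate 1 (FDR = 0.0551). That of BOK was lost with total count scaling (log2 fold change 0.25, FDR = 0.0243), in DESeq2 (FDR = 0.0168) and without the same 4 libraries (FDR = 0.0107, 0.0149, 0.0220 and 0.0218). BCL2L10 (at most 4 counts) and BCL2L14 (5 to 15 counts) did not pass the filter, and BCL2A1 was not analysed here. The median log2 fold change of this list was 0.078, and 63.6% of its tested genes were called, against 47.9% of all genes tested.

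Of 13 genes of the apoptosome and caspases 3 were higher and 1 lower. This balance depended on the setting, with 2 higher and 4 lower under total count scaling, 3 and 3 with at least 10 counts in every library, and 2 and 3 without OV3/COX1KD replicate 3. AIFM1, which encodes apoptosis-inducing factor, had a log2 fold change of 0.45 (SE 0.041, FDR = 1.57e-08 by edgeR), CYCS (cytochrome c) of 0.22 (FDR = 1.22e-06) and CASP6 of 0.21 (FDR = 0.00335). The call of CASP6 was lost without OV3/SCR replicate 2 (FDR = 0.0195) or 3 (FDR = 0.0220), without OV3/COX1KD replicate 3 (FDR = 0.0240), in DESeq2 (FDR = 0.0152) and with total count scaling (log2 fold change 0.13, FDR = 0.0561). The initiator caspase gene CASP9 (log2 fold change 0.034, FDR = 0.732) did not pass. This list had 30.8% of its genes called, against 47.9% of all genes tested, and a median log2 fold change of 0.006.

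Among 7 inhibitor of apoptosis (IAP) genes 6 were tested, of which XIAP (log2 fold change 0.15) and BIRC5 (survivin, 0.23) were higher. The call of XIAP was lost without OV3/SCR replicate 2 (FDR = 0.0132) or OV3/COX1KD replicate 1 (FDR = 0.0119), in DESeq2 (FDR = 0.0102) and with total count scaling (log2 fold change 0.0769, FDR = 0.0952). Total count scaling also ended the call of BIRC5 (log2 fold change 0.15, FDR = 0.010). BIRC3 (cIAP2), a known NF-κB target, had 22, 15 and 17 counts in OV3/SCR and 8, 6 and 0 in OV3/COX1KD libraries, giving a log2 fold change of -1.89 (SE 0.49, FDR = 0.00278 by edgeR). Its call was lost without OV3/SCR replicate 1 (FDR = 0.0189) or 3 (FDR = 0.0104) and without OV3/COX1KD replicate 3 (log2 fold change -1.29, FDR = 0.0133). BIRC7 had at most 3 counts in any library and was not tested. The median log2 fold change of the list was 0.107, and 50.0% of its tested genes were called, against 47.9% of all genes tested.

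Of 9 genes for binding partners and turnover enzymes of family proteins 8 were tested, with 4 higher and 1 lower, and DYNLL2 was not analysed here. MTCH2, the mitochondrial receptor of truncated BID, had a log2 fold change of 0.30 (SE 0.032, FDR = 9.45e-08 by edgeR), DYNLL1, the dynein light chain that binds BIM, of 0.23 (FDR = 1.17e-06), and the channel gene VDAC1 of 0.18 (FDR = 6.95e-05). FBXW7, a ubiquitin ligase subunit that acts on MCL1, had a log2 fold change of -0.47 (SE 0.057, FDR = 8.31e-07 by edgeR). HUWE1, another ubiquitin ligase of MCL1, had 18130, 13076 and 18835 counts in the OV3/COX1KD libraries and 13896 to 14596 in OV3/SCR, with the low value again in OV3/COX1KD replicate 2. Its log2 fold change of 0.26 (FDR = 0.00535) became 0.40 without that library (FDR = 8.77e-25). Without OV3/COX1KD replicate 1 it was 0.18 (FDR = 0.0437) and without replicate 3 it was 0.20 (FDR = 0.0427), and without OV3/SCR replicate 1, 2 or 3 its FDR was 0.0307, 0.0392 and 0.0130. In DESeq2 it was not called (FDR = 0.144). The call of HUWE1 was also lost with total count scaling (log2 fold change 0.18, FDR = 0.0291). With at least 10 counts in every library it was 0.24 and not called (FDR = 0.01). The number of genes called in this list was 5 with all libraries and 8 without OV3/COX1KD replicate 2, which also moved the count over all genes from 8293 to 8989. The median log2 fold change of this list was 0.145, with 62.5% of its tested genes called, against 47.9% of all genes tested.

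Among 8 transcription factors known to act on family genes, 4 were higher and 2 lower, with a median log2 fold change of 0.067. The share called was 75.0% of these few genes, against 47.9% of all genes tested. FOXO1, which can activate BCL2L11, had 645, 651 and 642 counts in OV3/SCR and 340, 295 and 359 in OV3/COX1KD libraries, giving a log2 fold change of -0.93 (SE 0.064, FDR = 2.11e-10 by edgeR). FOXO3, which shares this target, had a log2 fold change of 0.18 (FDR = 0.00110), a call that was lost without OV3/SCR replicate 2 (FDR = 0.0122) or OV3/COX1KD replicate 1 (FDR = 0.0129) and with total count scaling (log2 fold change 0.10, FDR = 0.0398). TP73 rose by 0.62 (SE 0.099, FDR = 2.30e-05 by edgeR) on the log2 scale. ATF4, a stress factor that can activate PMAIP1, had a log2 fold change of -0.40 (SE 0.030, FDR = 9.76e-10 by edgeR), and STAT3, which can activate MCL1 and BCL2L1, of 0.23 (FDR = 4.86e-05). In bulk samples a lower level in each cell and fewer cells that express a gene cannot be told apart.

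**Figure D4:**
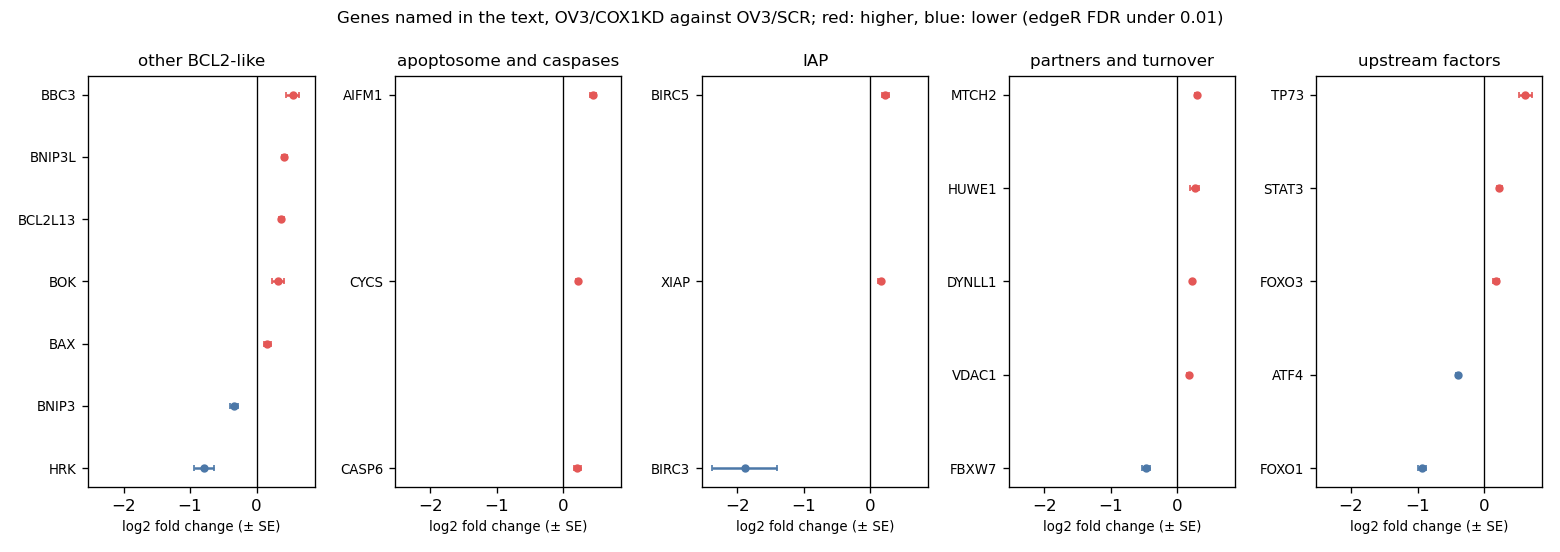
Log2 fold change with its standard error (horizontal axes, OV3/COX1KD against OV3/SCR) for the genes of the 5 further lists that were called and are named in the text, red where higher and blue where lower. The points run from BIRC3 at -1.89 to TP73 at 0.62.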

How the data were processed

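RNA-seq was performed on 3 OV3/SCR and 3 OV3/COX1KD libraries. Reads had been mapped by the authors with TopHat2 (hg19 build). The deposited values are raw HTSeq counts per gene, not normalized. The annotation and the strand setting are not given in the sources used here. Conditions and replicate numbers came from the labels.

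The whole table was fitted with edgeR 4.0.16 under R 4.3.3 (TMM scaling, filterByExpr, glmQLFit and glmQLFTest, condition as the only factor, Benjamini-Hochberg adjustment over 17309 genes). The standard error was the log2 fold change divided by the square root of F. The common dispersion was 0.00103. Library totals lay between 25291505 and 27391538 counts. The thresholds were those of the study's methods and figure legends (FDR under 0.01, log2 fold change beyond 0.5, fold change above 2.5). Exon lengths and coordinates were from GENCODE 44 lifted to GRCh37, and promoters from RefSeq. Scripts were tested on simulated data. The alternatives were RLE and total count scaling, 2 other filters, DESeq2 1.42.0 (its normal prior off or on), a replicate block and leaving out each library. Offsets for GC content and length, and another measure of length, were chosen after seeing the data.

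Members and lists were chosen with earlier results of these data known. All 10 members were named, and in the other lists genes past an FDR of 0.01 with a log2 fold change beyond 0.5 and the highest and lowest of each list. BAD, CASP9, MIR4435-2HG and the other called genes were named after their values were seen. Some genes counted in the lists are not reported here by name.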

Additional observations from a re-analysis of the deposited data

How the results depend on the processing

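MCL1, BID, BMF, BCL2L11 and PMAIP1 kept their direction and their call under all 15 alternatives, with log2 fold changes of -0.26 to -0.16, -0.29 to -0.18, -0.46 to -0.34, 0.28 to 0.39 and -0.91 to -0.79. The number of members called lay between 5 and 8. It was 5 in DESeq2, where BIK was -1.14 without and -0.71 with the normal prior and was not called, and with at least 10 counts in every library BIK was not tested. For these reasons the number beyond a log2 fold change of 0.5 was 1 in place of 2 under each of these 3 settings. Leaving out each library gave 1 to 3 such members, -1.28 to -0.93 for BIK and 0.51 to 0.85 for BCL2. BCL2 was called with no filter on low counts (0.66), with offsets for GC content and length (0.64), and with these offsets and the replicate block (0.63). BAK1 was called with no filter (0.23), with the offsets (0.23) and with the offsets and the block (0.23). BCL2L1 was called with total count scaling (-0.18) and with at least 10 counts in every library (-0.12). Total count scaling turned BCL2L2 to -0.0196, and it moved the median of all genes to -0.087. It also left 1 IAP gene called in place of 3, and moved the calls over all genes from 4473 higher and 3820 lower to 3466 higher and 4978 lower. Leaving out each library gave 4 to 8 partner and turnover genes called. Of the 25 other called genes that are no members, 17 kept their call under every alternative, 8 lost it under at least 1, and 0 reversed. With the longest transcript as length the shares of BCL2, BCL2L1 and MCL1 in OV3/SCR were 0.219, 36.1 and 55.2%, and those of BID, BCL2L11, BMF, PMAIP1 and BIK 58.4, 16.8, 13.3, 9.87 and 1.55%. Except where a setting removes genes or libraries, the cause was not tested.

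The sample titles number the replicates of each condition but do not say that a number marks a shared harvest. Deviations from the condition mean of same-numbered libraries correlated across genes with r of 0.00447, 0.0424 and 0.00896, so the numbers were not taken as a pairing, and not every library correlated best with its own number. With the replicate block 7 members were called, BCL2 among them (0.64, FDR = 0.00450), and 8233 of all genes in place of 8293. Depth limits BIK and BCL2, with 9 to 27 and 36 to 82 counts per library.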
